A study of Mus musculus with 8 samples.

Results

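CD numbers name the surface molecules by which leukocytes are classified with antibodies. The genes considered here are the 87 mouse protein-coding genes, of 21951 in the GENCODE annotation, whose symbol is Cd followed by a number and at most a letter and a further digit. Antigens known by another symbol, such as the integrin, Fc receptor and Toll-like receptor genes, fall outside this rule. The genes were divided by textbook use of the antigen into 26 myeloid genes, 23 lymphoid genes (18 of T and NK cells and 5 of B cells), 18 genes shared by several kinds of leukocyte and 20 genes that are broadly used or belong elsewhere. Some of them are neighbours, so that the 87 genes occupied 80 separate loci, and 13 of the genes lay in 6 loci with more than 1 member.

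The peaks came from X18.1.1, a murine AML cell line that has lost an allele of *Pu.1* and carries a substitution and a deletion in the remaining copy. The PU.1− line was a clone transduced with empty vector (EV). The PU.1+ line was a clone transduced with PuER, a retrovirally expressed protein in which wild-type PU.1 is joined to an oestrogen receptor domain that responds to 4-hydroxytamoxifen (OHT). Both clones held the mutant PU.1 and both were treated with 100 nM OHT for 2 h, so that the lines differ in the transgene and in being different clones, which cannot be told apart. ChIP-Seq with a PU.1 antibody and with a CEBPA antibody gave 1 library per antibody and line, each as a list of 400-bp peaks without height or read count. With the PU.1 antibody 5288 peaks were listed for PU.1− and 15683 for PU.1+, and with the CEBPA antibody 26119 and 20583. With 1 library for each, differences between the lines have no replicate check, no test was made and the depth of each library is unknown. Exact (Clopper-Pearson) 95% intervals are given for shares and cover counting error only.

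PU.1 is an ETS-family transcription factor needed for the development of macrophages, granulocytes and B cells, and it binds DNA around a GGAA core. CEBPA is a basic leucine zipper factor of the granulocyte and monocyte lineage. Both factors are known to bind side by side at enhancers of myeloid genes, among which genes for surface receptors are prominent. T-cell antigens are normally expressed in cells that have turned PU.1 off. A peak shows where a factor was bound, not whether the antigen was made, and expression of the antigens was not measured in these files.

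A peak was counted for a gene when its centre lay in the gene body or within 20 kb of it, so that a peak could count for several genes. A peak was called shared when it overlapped a peak of the same antibody in the other line by at least 1 bp, and otherwise was termed EV-only or PuER-only after the line in which it was called. PuER-only peaks are also called new, with no statement on binding below the calling threshold in PU.1−. Positions are distances from the annotated gene start along the gene's strand, negative upstream, and coordinates are those of mm10 (GRCm38).

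The central 80 bp of several of these peaks are printed as examples picked by hand. Capitals mark exact matches, on either strand, to GAGGAAGT (a PU.1-type site), GGAAGT (a general ETS site, contained in the former) or TTGCNNAA (a CEBP site). Most PU.1 peaks near these genes in PU.1+ held no GGAAGT in this stretch, so the examples are not typical. The sequences are the forward strand of the reference, 5′ to 3′. *Cd84* and *Cd244a*, which encode receptors of the SLAM family, give examples of PU.1 peaks found in both lines, in each case in an intron.
Cd84, shared PU.1 peak, chr1:171845187-171845266: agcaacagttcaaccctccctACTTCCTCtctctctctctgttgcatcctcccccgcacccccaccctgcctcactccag
Cd244a, shared PU.1 peak, chr1:171561368-171561447: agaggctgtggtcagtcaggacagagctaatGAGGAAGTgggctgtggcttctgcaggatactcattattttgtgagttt
The next PuER-only peaks, in introns of *Cd81*, *Cd47* and *Cd177* and upstream of *Cd5l*.
Cd81, PuER-only PU.1 peak, chr7:143059547-143059626: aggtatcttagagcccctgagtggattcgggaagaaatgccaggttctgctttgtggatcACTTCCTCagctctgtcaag
Cd47, PuER-only PU.1 peak, chr16:49816995-49817074: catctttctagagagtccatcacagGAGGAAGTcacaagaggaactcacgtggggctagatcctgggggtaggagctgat
Cd5l, PuER-only PU.1 peak, chr3:87338128-87338207: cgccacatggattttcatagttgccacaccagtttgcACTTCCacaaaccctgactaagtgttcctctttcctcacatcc
Cd177, PuER-only PU.1 peak, chr7:24758668-24758747: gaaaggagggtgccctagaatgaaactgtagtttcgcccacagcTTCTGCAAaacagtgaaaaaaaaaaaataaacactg
The *Cd177* peak carried a CEBP site and no GGAAGT, and it overlapped a CEBPA peak that both lines had. The last example is a CEBPA peak in an intron of *Cd6* that was called only in PU.1+.
Cd6, PuER-only CEBPA peak, chr19:10803908-10803987: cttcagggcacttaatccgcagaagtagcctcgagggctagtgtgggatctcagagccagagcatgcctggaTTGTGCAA

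**Figure D1:**
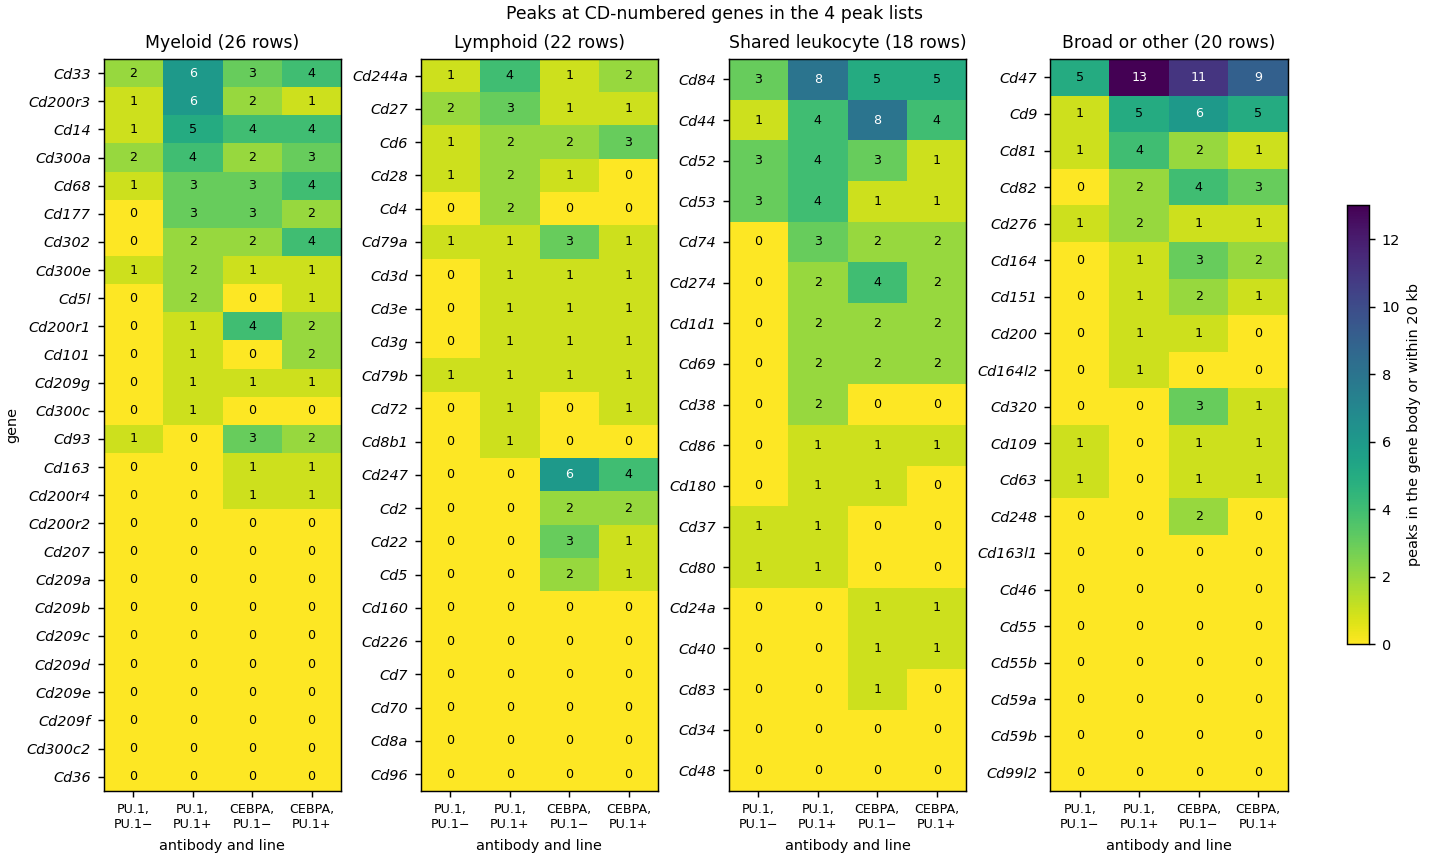
Number of peaks in the gene body or within 20 kb for the genes shown (rows, by list, with the number of rows above each panel) in the 4 libraries (columns: PU.1 and CEBPA antibodies in the PU.1− and PU.1+ lines). The second column is darker than the first for 43 genes and lighter for 3, and many of the lowest rows have 0 in every column.

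PU.1 peaks near CD-numbered genes rose in number from 38 in PU.1− to 120 in PU.1+, counting each peak once. This was a ratio of 3.16, beside 2.97 for all peaks in the genome. More PU.1 peaks were called in PU.1+ than in PU.1− at 43 of the 87 genes, fewer at 3 and the same number at 41, of which 37 had no PU.1 peak in either line. Over all protein-coding genes 32.5% had more, 6.2% fewer and 53.7% no PU.1 peak, beside 49.4%, 3.45% and 42.5% here. Of the 120 peaks in PU.1+, 92 were called only there (76.7%, 95% interval 68.1–83.9, against 81.1% of all peaks). Of the 38 peaks of PU.1−, 10 were not found again in PU.1+ (26.3%, 13.4–43.1, against 43.8% of all peaks).

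A PU.1 peak was present in PU.1+ at 47 genes (54.0%, 43.0–64.8), beside 41.4% of all protein-coding genes, and a PuER-only PU.1 peak at 44 genes (50.6%, 39.6–61.5), beside 36.7%. An EV-only PU.1 peak was found at 10 genes (11.5%), beside 13.7%. The mean number of PU.1 peaks per gene in PU.1+ was 1.4 for these genes and 0.833 for all genes. The median body was 15.2 kb for these genes and 17.4 kb for all genes, and the density of peaks per 100 kb of body and flanks was 2.12 against 0.936. The part of gene length in these shares was not tested.

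CEBPA peaks moved the other way, from 121 in PU.1− to 97 in PU.1+, a ratio of 0.802 beside 0.788 for all CEBPA peaks. A CEBPA peak was present in PU.1− at 51 genes (58.6%), near the 56.5% of all genes. EV-only CEBPA peaks lay at 29 genes (33.3%, beside 30.1%) and those called only in PU.1+ at 14 genes (16.1%, beside 11.4%). By the nearest body, EV-only CEBPA peaks lay at 18 genes (20.7%, beside 19.8%) and a CEBPA peak of PU.1− at 38 (43.7%, beside 40.6%), while EV-only PU.1 peaks lay at 5 (5.75%, beside 8.05%). More CEBPA peaks were called in PU.1+ at 9 genes, fewer at 23 and the same number at 55 (10.3% and 26.4% with more and fewer, beside 6.72% and 26.7% of all genes).

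Myeloid and lymphoid antigens were compared under 2 ways of giving peaks to genes. Within 20 kb, a PuER-only PU.1 peak was found at 13 of 26 myeloid genes (50.0%, 29.9–70.1) and at 10 of 23 lymphoid genes (43.5%, 23.2–65.5). When each peak was given only to the nearest gene body, still within 20 kb, the 13 myeloid genes stayed and the lymphoid genes fell to 5 (21.7%, 7.46–43.7), beside 25.2% of all genes under the same assignment. The intervals of both lists overlapped under either assignment, and the difference between the lists was not tested. By the nearest body, none of the 5 B-cell genes had a PU.1 peak in PU.1+ (upper limit 52.2%), beside 28.6% of all genes.

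Under the nearest body, 5 lymphoid genes with a PuER-only PU.1 peak within 20 kb no longer counted. Of these, 3 had peaks nearer to or inside a gene without a CD number. These peaks were nearest to or inside *Vamp1* for *Cd27*, a TNF-receptor family member of lymphocytes, inside *Smyd1* for *Cd8b1*, the β chain of the CD8 co-receptor, and nearer to *Sit1* for *Cd72*, an inhibitory receptor of B cells. The other 2 were *Cd3e* and *Cd3g*, whose peak lay in *Cd3d*, itself a lymphoid gene. The shared peak counted for *Cd79a*, a signalling chain of the B-cell receptor, lay at *Rps19*, and an upstream peak of *Cd6*, a scavenger-receptor protein of T cells that kept another peak in its body, was inside *Slc15a3*. Of the 20 pairs of a lymphoid gene and a PU.1 peak in PU.1+, the lymphoid gene was the nearest body in 10 (50%, 27.2–72.8), against 30 of 37 pairs of a myeloid gene (81.1%) and 67.9% of pairs over all genes.

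By number of peaks the myeloid genes had the largest ratio. PU.1 peaks went from 9 to 37 at myeloid genes (ratio 4.11), from 7 to 18 at lymphoid genes (2.57), from 12 to 35 at shared leukocyte genes (2.92) and from 10 to 30 at the remaining genes (3). CEBPA peaks went from 29 to 32 at myeloid genes (1.1), and fell from 23 to 18 at lymphoid genes (0.783), from 32 to 22 at shared leukocyte genes (0.688) and from 37 to 25 at the remaining genes (0.676). These are counts of single libraries, and the small numbers in PU.1− set the ratios for PU.1.

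The shared leukocyte genes had the highest share with PU.1. A PU.1 peak was present in PU.1+ at 13 of 18 of them (72.2%, 46.5–90.3), beside 41.4% of all genes, and at 13 when only the nearest body was used, beside 28.6%. None of the 22 CEBPA peaks near them in PU.1+ was called only in that line (0%, upper limit 15.4), whereas 9 of 32 at myeloid genes (28.1%) and 5 of 18 at lymphoid genes (27.8%) were, and 1 of 25 at the remaining genes (4%, 0.101–20.4), beside 12.1% of all CEBPA peaks in PU.1+. By gene these new CEBPA peaks fell at 6 of 26 myeloid and 7 of 23 lymphoid genes within 20 kb, and at 4 and 2 by the nearest body, beside 11.4% and 7.33% of all genes. *Cd3d*, *Cd3e* and *Cd3g*, which share 1 such peak, are 3 of the 7 lymphoid genes.

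**Figure D2:**
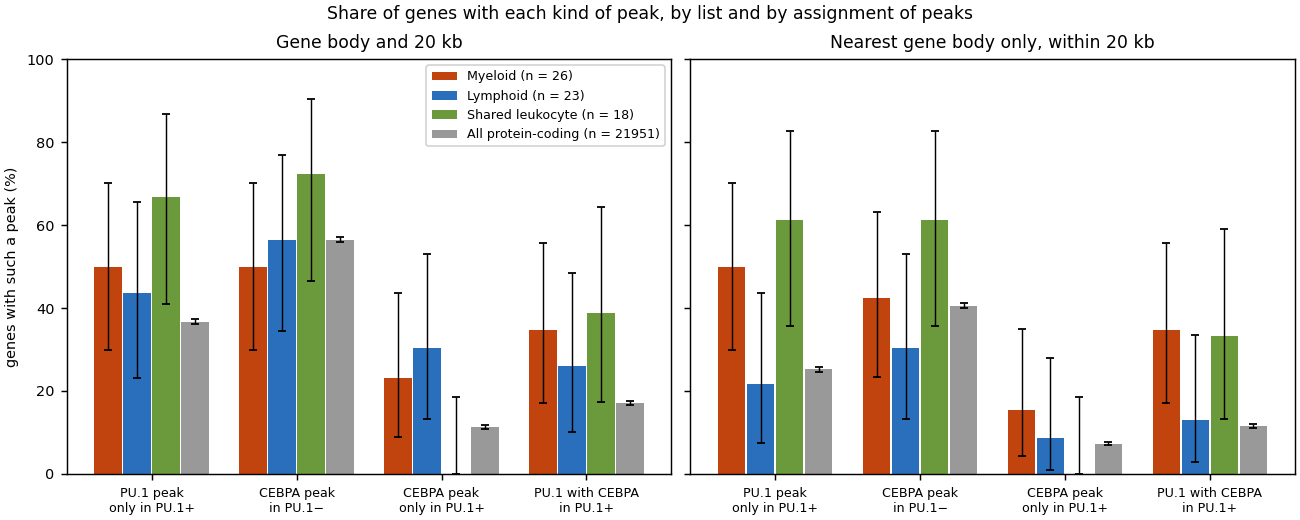
Share of genes (percent) with each kind of peak for the myeloid, lymphoid and shared leukocyte lists and for all protein-coding genes, with peaks counted in the body and 20 kb (left) or for the nearest body only (right). Bars are shares and lines are exact 95% intervals for counting error. The lymphoid share with a PU.1 peak only in PU.1+ is 43.5% on the left and 21.7% on the right, while the myeloid share is 50% in both, and the intervals of the lists overlap in both panels.

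Among the myeloid receptors, *Cd14*, the co-receptor for lipopolysaccharide, had 1 PU.1 peak in PU.1− against 5 in PU.1+. Of the 4 PuER-only peaks, 1 was centred at −1055 bp and 3 beyond the end of the gene, between 13400 and 17817 bp from the start. Its CEBPA peaks numbered 4 in both lines and all of them were shared, so the CEBPA pattern at *Cd14* was the same in both lists while that of PU.1 was not. PuER-only PU.1 peaks overlapped these shared CEBPA peaks at 13400 and 17817 bp.

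*Cd68*, a lysosomal and surface glycoprotein of macrophages, had 1 PU.1 peak in PU.1− against 3 in PU.1+. The PuER-only peak at +25 bp covered the gene start and overlapped a shared CEBPA peak centred at −180 bp. A GGAAGT on the gene's strand occupied the bases from −6 to −1 relative to the GENCODE start. The RefSeq start lies further upstream, so this GGAAGT falls after it and is not in the sequence below. The bases just before the start in RefSeq (GRCm38.p6), shown on the gene's strand because both peaks covered them, held a CEBP site that begins at −43 from the RefSeq start.
Cd68, promoter, chr11:69666171-69666290: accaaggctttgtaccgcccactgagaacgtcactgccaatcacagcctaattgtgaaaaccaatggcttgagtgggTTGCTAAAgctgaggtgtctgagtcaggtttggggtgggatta
The other PU.1 peaks counted for *Cd68* lay at −19193 and −19954 bp, at the edge of the 20-kb limit and inside neighbouring genes.

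*Cd33*, a sialic-acid-binding inhibitory receptor of myeloid cells, had 2 PU.1 peaks in PU.1− against 6 in PU.1+. The PU.1− peaks, at −271 and −1778 bp, were both shared and both overlapped shared CEBPA peaks. Of the 4 PuER-only peaks, those at 11220 and 13819 bp lay in the gene body and those at −8950 and −18936 bp were nearer to *Zfp658*. CEBPA peaks numbered 3 and 4.

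*Cd177*, a surface protein of neutrophils, had no PU.1 peak in PU.1− against 3 in PU.1+, all in introns. At 1603 and 6716 bp the new PU.1 peaks overlapped CEBPA peaks that were already present in PU.1− and held CEBP sites. A CEBPA peak at −43 bp, over the gene start, was called only in PU.1−.

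*Cd302*, a C-type lectin receptor, had no PU.1 peak in PU.1− against 2 in PU.1+, and its CEBPA peaks went from 2 to 4. The new peaks of both factors coincided. At the start of the gene the PU.1 peak lay at 108 bp and the CEBPA peak at 68 bp, and upstream they lay at −4324 and −4044 bp, which is nearer to *Ly75*. The central 80 bp of the peak at the gene start held both GGAAGT and TTGCNNAA.

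*Cd5l*, a secreted scavenger-receptor protein of macrophages, had no peak of either factor in PU.1−. In PU.1+ there were 2 PU.1 peaks, at −19713 and 11480 bp, and 1 CEBPA peak at −19733 bp over the upstream PU.1 peak printed above. The intronic peak held a GAGGAAGT. *Cd101*, an inhibitory receptor of myeloid cells and T cells, likewise had no peak in PU.1− and gained 1 PU.1 peak, at 18825 bp, with a CEBPA peak at 18838 bp, and a further CEBPA peak at −1189 bp.

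*Cd300a*, an inhibitory receptor for membrane phospholipids, had 2 PU.1 peaks in PU.1−, both shared, and 4 in PU.1+. The shared peak at 234 bp lay at the promoter. A PU.1 and a CEBPA peak that were both called only in PU.1+ coincided downstream, at 23062 and 23131 bp. *Cd200r3*, an activating member of the CD200 receptor family, had 1 PU.1 peak in PU.1− against 6 in PU.1+, while its CEBPA peaks went from 2 to 1.

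Within the myeloid list, the 4 *Cd200r* genes together had 1 PU.1 peak in PU.1− against 7 in PU.1+, the 4 *Cd300* genes 3 and 7, and the 7 *Cd209* genes, C-type lectins of dendritic cells and macrophages, 0 and 1, all of it at *Cd209g*. By role, 7 of 10 paired immunoglobulin-type receptors (34.8–93.3%) and 4 of 14 scavenger and lectin receptors (8.39–58.1%) had a PuER-only PU.1 peak, intervals that overlap and that both hold the 36.7% of all genes, and 6 of the latter 14 are the *Cd209* genes that had no peak at all. *Cd93*, a C-type lectin-like protein of early haematopoietic and endothelial cells, was the only myeloid gene with an EV-only PU.1 peak, at 2 bp, and had none in PU.1+.

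**Figure D3:**
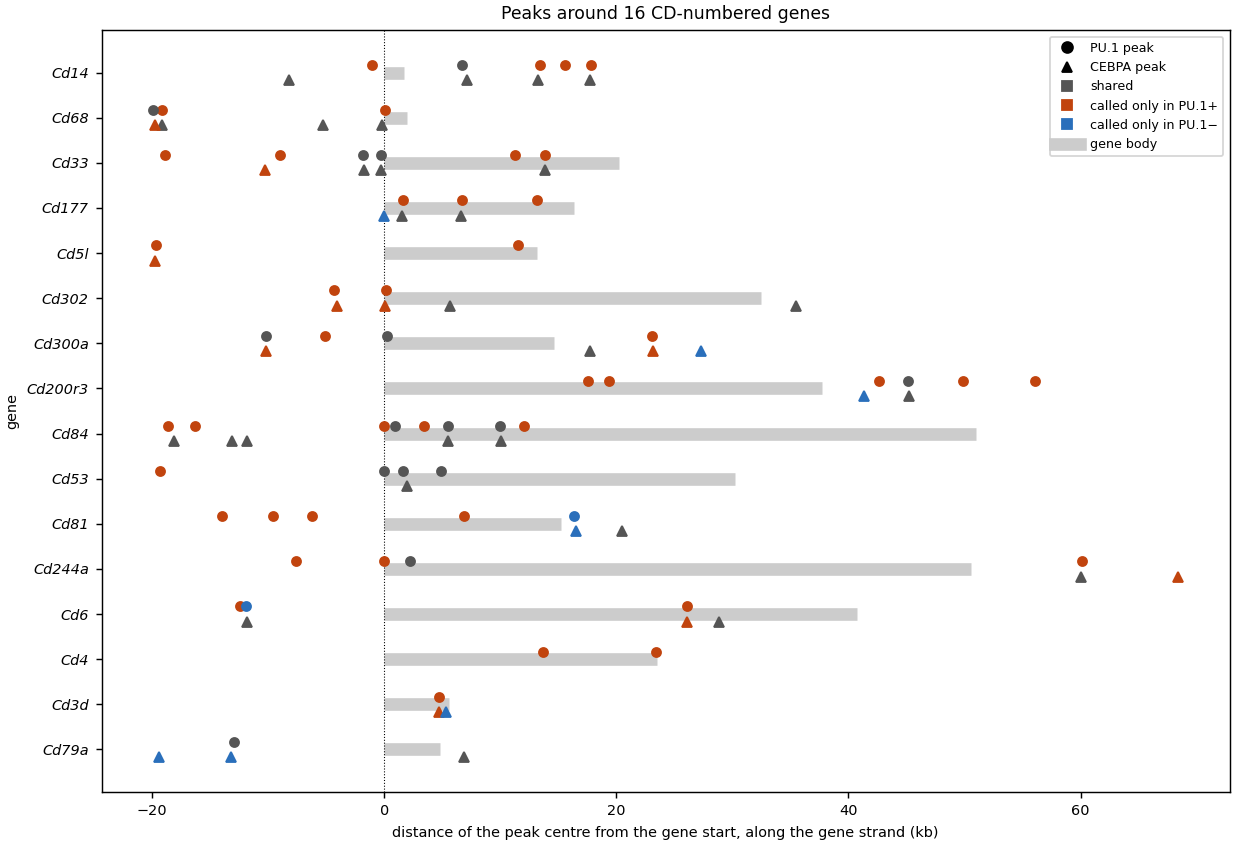
Peak centres around 16 of the genes as distance from the gene start along the gene strand (kb). Circles are PU.1 peaks and triangles CEBPA peaks, grey for shared peaks (drawn at the PU.1+ position), orange for PuER-only peaks and blue for EV-only peaks, and grey bars are gene bodies. Paired orange circles and triangles mark sites at Cd302, Cd5l, Cd300a, Cd6 and Cd3d where both factors were called only in PU.1+.

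Among the lymphoid antigens, *Cd244a*, a SLAM-family receptor of NK cells that is also found on myeloid cells, had 1 PU.1 peak in PU.1−, the shared intronic peak printed above, and 4 in PU.1+. The 3 PuER-only peaks were centred at −7616, −12 and 60104 bp, the last over a shared CEBPA peak. *Cd4*, the co-receptor of helper T cells, had no PU.1 peak in PU.1− against 2 in PU.1+, both inside the gene, and no CEBPA peak in either line. *Cd28*, the co-stimulatory receptor of T cells, had 1 peak in PU.1− and 2 others in PU.1+, so that none was shared, and the peak at 29019 bp, near the start of a shorter transcript, held a GAGGAAGT.

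The genes for the CD3 chains of the T-cell receptor, *Cd3d*, *Cd3e* and *Cd3g*, lie side by side and shared a pair of PuER-only peaks, 1 for PU.1 and 1 for CEBPA, both within *Cd3d* at 4703 and 4732 bp. An EV-only CEBPA peak lay 152 bp away, so that the CEBPA peaks of both lines would count as shared if peaks up to 1000 bp apart did. *Cd6* showed such a pair for PU.1, with a gap of 112 bp between the PU.1− and the PU.1+ peak inside *Slc15a3*. In the body of *Cd6* itself a PU.1 peak at 26124 bp and the CEBPA peak at 26110 bp printed above were called only in PU.1+. *Cd27* had 2 PU.1 peaks in PU.1− against 3 in PU.1+, of which 1 was shared.

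For the B-cell receptor chains *Cd79a* and *Cd79b*, the single PU.1 peak of each was shared between the lines, and none was called only in PU.1+. In both cases another gene had the nearest body. *Cd8a*, the α chain of the CD8 co-receptor, had no peak of either factor in any list. *Cd247*, the ζ chain of the T-cell receptor complex, which is mentioned after its values were seen, had no PU.1 peak but 6 CEBPA peaks in PU.1− against 4 in PU.1+.

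The highest counts of PU.1 peaks in PU.1+ were at *Cd47* and *Cd84*, genes that are not confined to a lineage. Their windows of body and flanks were 154 and 91 kb, whereas *Cd14* had its 5 peaks in 41.7 kb. *Cd33* and *Cd200r3* came next, with 6 each. *Cd47*, the inhibitory signal to macrophages carried by most cells, had 5 PU.1 peaks in PU.1− against 13 in PU.1+, 9 of them called only there, and 11 and 9 CEBPA peaks. *Cd84*, a SLAM-family receptor of leukocytes, had 3 and 8 PU.1 peaks and 5 CEBPA peaks in each line, all shared. A new PU.1 peak at −8 bp stood at its gene start, beside the shared peak at 896 bp. *Cd44*, the hyaluronan receptor, went from 1 to 4 PU.1 peaks while its CEBPA peaks went from 8 to 4, none of them new.

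Of the 7 tetraspanin genes with CD symbols, every gene had a PU.1 peak in at least 1 line, whereas 53.7% of all protein-coding genes had none. In PU.1+ 6 of the 7 had one (85.7%, 42.1–99.6), beside 41.4% of all genes. Their PU.1 peaks went from 7 to 17, a ratio of 2.43 beside 2.55 over all pairs of gene and peak. Their CEBPA peaks went from 16 to 12 (0.75, beside 0.789). *Cd9* rose from 1 to 5 and *Cd81* from 1 to 4, and all 4 PU.1 peaks of *Cd81* in PU.1+ were new and held GGAAGT in the central 80 bp. The PU.1− peak counted for *Cd81* lay beside *Trpm5*, at a site where a CEBPA peak was also called only in PU.1−. *Cd63* and *Cd109*, the latter a GPI-anchored protein, had only a PU.1 peak of PU.1−, which for *Cd63* lay inside *Bloc1s1*. *Cd37* and *Cd53*, leukocyte tetraspanins chosen after their values were seen, had shared PU.1 peaks with GAGGAAGT at −324 and 5 bp.

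In all, 26 of the 87 genes (29.9%, 20.5–40.6) had no peak in any of the 4 lists, beside 34.5% of all protein-coding genes. Besides 6 of the *Cd209* genes and *Cd8a*, they included *Cd34*, the antigen of stem and progenitor cells, *Cd36*, a scavenger receptor for lipids, and the complement regulators *Cd46*, *Cd55*, *Cd55b*, *Cd59a* and *Cd59b*. The peak lists give no score, so a peak just below the calling threshold cannot be told apart from no binding.

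A PU.1 peak within 1000 bp of a transcript start was present in PU.1+ at 17 genes (19.5%), beside 8.19% of all genes, and in PU.1− at 7 genes (8.05%), beside 6.8%. The shared leukocyte genes held 6 of the 17 and the myeloid genes 5. CEBPA promoter peaks were found at 15 genes in PU.1− (17.2%, beside 19.4%) and at 12 in PU.1+ (13.8%, beside 16%).

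Most PU.1 peaks lay away from the promoter all the same. Over the 122 pairs of a gene and a PU.1 peak in PU.1+, 15.6% (9.64–23.2) were at a promoter, 38.5% in the rest of the gene body, 31.1% upstream and 14.8% (8.98–22.3) downstream. Over all protein-coding genes these shares were 10.9%, 40.3%, 25.1% and 23.7%. The lists differed in the downstream share, which was 24.3% at myeloid (9 of 37) and 25% at lymphoid genes (5 of 20). It was 0% at shared leukocyte genes (0 of 35) and 13.3% at the remaining genes (4 of 30). The median distance from the gene start was 8343 bp for shared PU.1 peaks and 13645 bp for those called only in PU.1+.

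**Figure D4:**
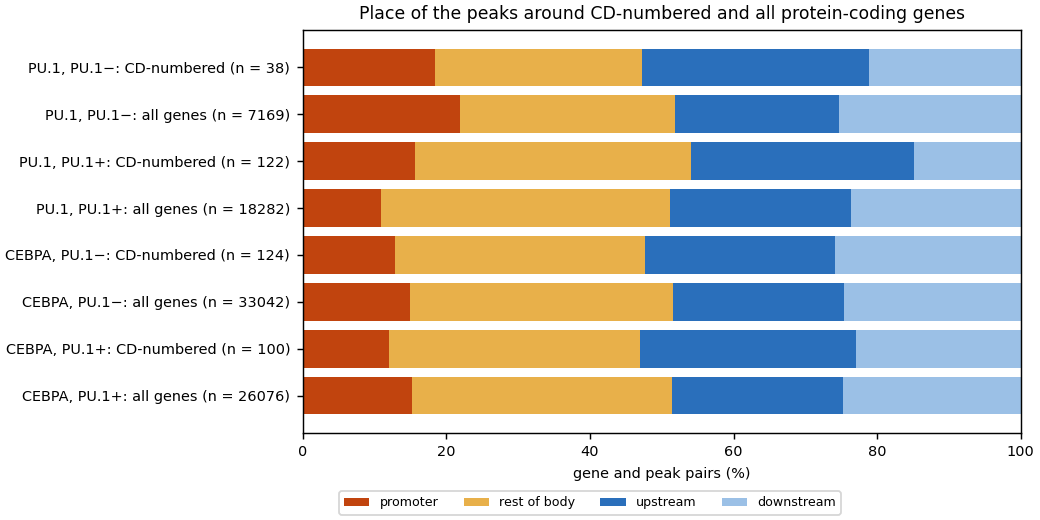
Place of peaks relative to the gene they were counted for, as percent of gene and peak pairs, for CD-numbered genes and all protein-coding genes in the 4 libraries. For PU.1 in PU.1+ the downstream part is 14.8% at CD-numbered genes and 23.7% at all genes, while the CEBPA bars differ less. The CD-numbered genes are pooled over the lists, which differ in this part.

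PU.1 and CEBPA peaks met at 38 sites near these genes in PU.1+, with a median of 53.5 bp between the centres. At 17 sites a new PU.1 peak joined a CEBPA peak present in both lines, at 11 both peaks were shared, at 8 both were called only in PU.1+ and at 2 a new CEBPA peak joined a shared PU.1 peak. A PU.1 peak of PU.1+ that overlapped a CEBPA peak was found at 24 genes (27.6%, 18.5–38.2), beside 17.1% of all genes. They comprised 9 of 26 myeloid, 6 of 23 lymphoid, 7 of 18 shared leukocyte and 2 of the 20 remaining genes, where *Cd3d*, *Cd3e* and *Cd3g* count as 3 lymphoid genes through 1 site. By the nearest body the counts were 9, 3, 6 and 2, beside 11.6% of all genes.

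By peak, 38 of the 120 PU.1 peaks in PU.1+ overlapped CEBPA (31.7%), near the 29.8% of all PU.1 peaks. At myeloid genes the share was 17 of 37 (45.9%, 29.5–63.1) and at lymphoid genes 4 of 18 (22.2%, 6.41–47.6). Of the 15 PuER-only CEBPA peaks, 10 overlapped a PU.1 peak (66.7%, 38.4–88.2), beside 42.6% of all such CEBPA peaks. Myeloid genes held 7 of these 10 and 9 of the 15. The 8 sites where both factors were called only in PU.1+ were those of *Cd302* (2 sites), *Cd300a*, *Cd5l*, *Cd101*, *Cd6*, the *Cd3* cluster and *Cd47*. Such joint sites took in 8 of the 92 PuER-only PU.1 peaks near these genes (8.7%, 3.83–16.4), close to the 7.17% found genome-wide.

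Matching sites were counted in the same way near these genes and over the genome. Of the 120 PU.1 peaks in PU.1+, 50 held GGAAGT centrally, within 80 bp (41.7%), beside 43.5% of all PU.1 peaks there, and 21 held GAGGAAGT (17.5%), beside 15.2%. Among the PuER-only PU.1 peaks 33 of 92 held GGAAGT (35.9%, 26.1–46.5), and the share was 31.0% at myeloid genes (9 of 29), 28.6% at lymphoid genes (4 of 14) and 42.9% over the genome. TTGCNNAA was present in 38 of 97 CEBPA peaks in PU.1+ (39.2%, beside 38.2%). Of the 15 new CEBPA peaks, 3 held TTGCNNAA (20%, 4.33–48.1, beside 30.8%) and 4 held GGAAGT (26.7%, 7.79–55.1, beside 14.5%). All 4 of the latter were at myeloid genes, which held 9 of the 15.

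The RefSeq promoters, 300 bases around each start, could be matched for 64 of the 87 genes, with 72 promoters. GGAAGT occurred in 25 of them (34.7%, 23.9–46.9, beside 23.8% of all promoters of that length). GAGGAAGT occurred in 5 (6.94%, 2.29–15.5, beside 3.2%) and TTGCNNAA in 14 (19.4%, 11.1–30.5, beside 10.8%). Of the 23 myeloid promoters 8 held GGAAGT, 0 GAGGAAGT and 7 TTGCNNAA, and of the 14 lymphoid promoters 7, 2 and 5. These are matches of letters, and which of them were bound was not tested.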

How the data were processed

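The PU.1 and CEBPA libraries (4 of 8 samples in the series) were used. Samples for H3K27Ac and IgG were not analysed here. The authors mapped reads to mm10 (GRCm38) with Bowtie2 2.0.6 and called peaks with MACS2 2.0.10, as the submitters' processing notes name them. The deposited lists give peak start and end only, in base pairs, so no test that needs counts or scores was possible.

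The genes are those of GENCODE vM21. Peaks were assigned by their centre to gene bodies extended by 20 kb, and shared peaks overlapped by at least 1 bp. Promoters were within 1000 bp of any transcript start. Overlap, assignment and motif steps were tested on simulated data. Named genes were the 8 myeloid, 5 lymphoid and 5 remaining genes with the most PuER-only PU.1 peaks, genes with joint new peaks, lymphoid genes with PU.1 in both lines, genes with PU.1 peaks only in PU.1−, and *Cd14*, *Cd34*, *Cd68*, *Cd33*, *Cd79a*, *Cd3e*, *Cd4* and *Cd8a*. A further gene of this rule is not reported here. Members and lists were chosen with earlier results of these data known. Alternatives were other windows, overlap rules, gene starts, the nearest body, promoters of 2500 bp, wider motif searches and leaving out gene families. Python 3.11.15, pandas 2.3.3, numpy 2.4.6, scipy 1.17.1 and pysam 0.24.0 were used, with matplotlib 3.10.9 for plots.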

Additional observations from a re-analysis of the deposited data

How the results depend on the processing

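Of 204 values recomputed under an alternative, 149 stayed within 1.5 times the count reported or within the interval of the share. No paired analysis was possible because each antibody and line had 1 library. The counts below are genes, of 87 members, 26 myeloid and 23 lymphoid genes. Each gene count stands beside the share of all protein-coding genes under the same setting.

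Giving each peak to the nearest body only lowered the lymphoid counts, and the shares of all genes fell as well. PU.1 in PU.1+ came to 5 lymphoid genes, beside 28.6%, PU.1 only in PU.1+ to 5, beside 25.2%, and PU.1 only in PU.1− to 1, beside 8.05%. CEBPA in PU.1− came to 7, beside 40.6%, and CEBPA only in PU.1+ to 2, beside 7.33%. CEBPA only in PU.1− came to 4, beside 19.8%, and PU.1 with CEBPA to 3, beside 11.6%. For all members, PU.1 only in PU.1− came to 5, CEBPA only in PU.1+ to 7 and CEBPA only in PU.1− to 18, beside the same shares.

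With 10 kb, CEBPA only in PU.1+ came to 9 members and 3 myeloid genes, beside 8.66%. CEBPA only in PU.1− came to 3 myeloid and 5 lymphoid genes, beside 23.7%, and PU.1 only in PU.1− to 1 lymphoid gene, beside 10.7%. With 50 kb, PU.1 in PU.1+ came to 21 myeloid genes, beside 57.3%. PU.1 only in PU.1+ came to 20 myeloid and 16 lymphoid genes, beside 52.7%. PU.1 only in PU.1− came to 19 members, 3 myeloid and 6 lymphoid genes, beside 21.7%. CEBPA only in PU.1+ came to 23 members, beside 18.2%, and CEBPA only in PU.1− to 9 myeloid genes, beside 44.1%. With 20 kb on either side of the gene start, CEBPA in PU.1− came to 7 lymphoid genes, beside 46%. CEBPA only in PU.1+ came to 4 lymphoid genes, beside 7.1%. CEBPA only in PU.1− came to 3 myeloid and 4 lymphoid genes, beside 20.9%, and PU.1 with CEBPA to 2 lymphoid genes, beside 11%.

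Requiring an overlap of 50% of both peaks gave 3 myeloid genes with PU.1 only in PU.1−, beside 14%. Centres within 100 bp also gave 3, beside 14.8%. Taking peaks up to 1000 bp apart as shared was an alternative chosen after seeing the data. It gave 4 lymphoid genes with CEBPA only in PU.1+, beside 9.9%. Leaving out the *Cd200r*, *Cd209* and *Cd300* families removes 15 of the 26 myeloid genes and so lowers the counts by construction. Of the remaining 11, 7 had PU.1 in PU.1+, beside 41.4%, and 7 PU.1 only in PU.1+, beside 36.7%. CEBPA in PU.1− was found at 7, beside 56.5%, and CEBPA only in PU.1− at 2, beside 30.1%.

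With promoters of 2500 bp, 32.5% of the members' PU.1 peaks in PU.1+ and 32.4% of the myeloid ones, and for CEBPA 24% in PU.1− and 23.7% in PU.1+, lay at a promoter. GGAAGT in the central 200 bp or the whole peak was found in 63.2% and 68.4% of the members' PU.1 peaks in PU.1−, in 60.0% and 67.5% of those in PU.1+, in 54.1% and 56.8% of the myeloid ones in PU.1+, in 71.4% of the lymphoid ones in PU.1− for both widths, and in the whole peak in 66.7% of the myeloid ones in PU.1− and 72.2% of the lymphoid ones in PU.1+. TTGCNNAA was found in 48.8% and 56.2% of the members' CEBPA peaks in PU.1−, in 52.6% and 59.8% of those in PU.1+, and in the whole peak in 62.5% of the myeloid ones in PU.1+ and 56.5% of the lymphoid ones in PU.1−. Wider windows hold more letters by construction. The depth behind each list is unknown, which limits every comparison between lines.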

Other observations

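At the 20-kb limit, 4 PU.1 peaks of PU.1+ lay in the last kb inside and 2 in the first kb outside the windows of these genes. The *Cd5l* peak at −19713 bp and the *Cd53* peak at −19344 bp were among those inside. *Cd74*, the invariant chain of MHC class II, went from 0 to 3 PU.1 peaks with 2 CEBPA peaks in each line, *Cd69*, an early activation antigen, from 0 to 2 with 2 CEBPA peaks in each line, and *Cd38*, a cyclic ADP-ribose enzyme, from 0 to 2 with no CEBPA peak. *Cd52*, a GPI-anchored leukocyte glycoprotein, kept all 3 of its PU.1− peaks and gained 1 at −62 bp. These genes were chosen after their values were seen.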
